A study of Arabidopsis thaliana with 10 samples.

Results

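Transcripts of seedlings with very high and with very low IBL1 were compared directly, gene by gene, by setting the line that overexpressed IBL1 against the line in which IBL1 carries an insertion. The members of the comparison were the genes with an FPKM (sequenced fragments scaled for transcript length and for library size) of 1 or more in at least 1 of these lines, which held for 20968 of the 34047 genes in the deposited tables. The overexpressor carried a 35S:IBL1-GFP transgene, homozygous per the labels and driven by the constitutive 35S promoter of cauliflower mosaic virus. The mutant was a homozygous ibl1 T-DNA insertion line. Both lines and the wild type Col share the Col-0 background, and whole untreated seedlings were collected 10 days after sowing, so every value averages over all tissues. The study also holds seedlings carrying 35S:IBH1-GFP, an ibh1 T-DNA insertion line and Col, with 2 libraries for each of the 5 genotypes. The design text calls these libraries biological replicates, but the labels do not say whether they came from separate cultures, so a p-value may measure technical spread only. In whole seedlings, fewer cells of a type and less RNA per cell cannot be told apart.

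IBL1 and its homologue IBH1 are atypical basic helix-loop-helix (bHLH) proteins that bind DNA poorly or not at all. They are known to restrain cell elongation by pairing with growth-promoting bHLH factors such as HBI1, and small PRE proteins that act in the brassinosteroid and gibberellin pathways relieve that restraint. Brassinosteroids are plant steroid hormones that promote cell elongation, largely through the transcription factors BZR1 and BES1.

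Each genotype has 1 deposited FPKM per gene, not a value per library, and the depth of the libraries is unknown. The overexpressor had 20467 genes at 1 FPKM or more, the mutant 19974 and Col 20072. Of the 20968 members, 19473 were at 1 FPKM or more in both lines, 994 only in the overexpressor and 501 only in the mutant. The log2 ratio of overexpressor over mutant had a median of 0.18 over genes at 1 FPKM or more in both lines, and this shift was subtracted from every ratio. The centred ratio is called the relative log2 ratio below, and a positive value means a higher level in the overexpressor. A test was possible for 19883 members. The figure after ± is a standard error built from the authors' statistics against Col. It is an upper limit only as to Col, whose error enters it from each line although Col cancels in the ratio. Any spread that those statistics miss is missing from it too. A gene was called higher or lower where the two-sided normal test, with Benjamini-Hochberg adjustment over all 19883 genes, gave an adjusted p below 0.05. The test takes a ratio over its standard error as normal, which is an approximation with 2 libraries per genotype, so the size and error of each difference are given and no p-value of a single gene is printed.

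IBL1 itself (AT4G30410), at 14871109 to 14872176 of chromosome 4 in TAIR10, had 201 FPKM in the overexpressor, 7.70 FPKM in Col and 1.87 FPKM in the mutant. The levels of the lines were thus on either side of Col and 107-fold apart, with a relative log2 ratio of 6.56 ± 0.66, the largest called rise. The insertion line still had IBL1 reads, so it is a line with low rather than no IBL1 transcript, and the tables do not tell native transcript from transgene transcript. The level of its homologue IBH1 (AT2G43060), which lies at 17909185 to 17910082 of chromosome 2 in TAIR10, was 20.3 FPKM with high IBL1, 22.2 FPKM in Col and 17.4 FPKM with low IBL1, and the gene was not called (0.04 ± 0.35). The contrast therefore separated IBL1 without a detectable difference in its homologue at this precision. The 4 genes on each side of IBL1 on chromosome 4 held none that was called. The nearest, AT4G30400, lies 2481 bases away in the files' loci and was at 7.05 FPKM in the overexpressor and 6.57 FPKM in the mutant.

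**Figure D1:**
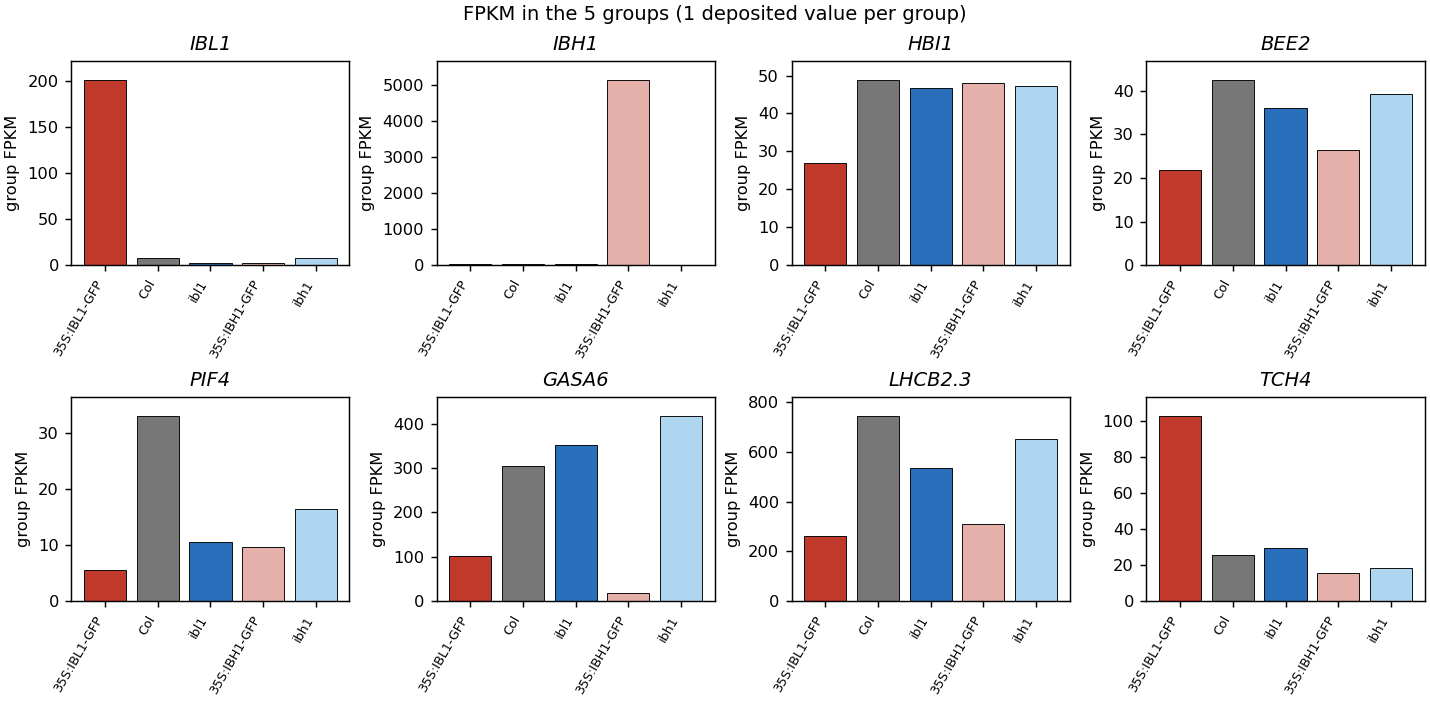
Bars give the deposited FPKM (linear axis from 0, 1 value per group, no error bar) of 8 genes in the IBL1 overexpressor, Col, the ibl1 mutant, the IBH1 overexpressor and the ibh1 mutant. IBL1 reached 201 FPKM in its overexpressor against 1.87 in the mutant, and HBI1 stood at 26.9 FPKM in the IBL1 overexpressor against 46.7 to 48.9 FPKM in the other groups.

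Between high and low IBL1, 675 of the 19883 tested genes were called (3.39%). Of these, 306 were higher in the overexpressor (1.54%) and 369 were lower (1.86%), and 117 differed at least 2-fold (0.588%), 89 of them higher (0.448%) and 28 lower (0.141%). Calls toward higher levels were larger, with a median relative log2 ratio of 0.76, while calls toward lower levels had a median of -0.52. This split depends on the centring: with the ratios taken as the FPKM give them, 1038 genes were called (5.22%), 893 higher (4.49%) and 145 lower (0.729%), so that 86.0% of the calls were higher in place of 45.3%. The share called was higher at higher levels, where the standard errors were smaller. Of the 4251 tested genes with a geometric mean of 10 to 20 FPKM over the lines, 1.27% were called with a median standard error of 0.30, and of the 91 genes at 1000 FPKM or more, 56.0% were called with a median standard error of 0.10. Among those 91 most abundant transcripts 43 were lower in the overexpressor and 8 higher, with a median relative log2 ratio of -0.35.

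**Figure D2:**
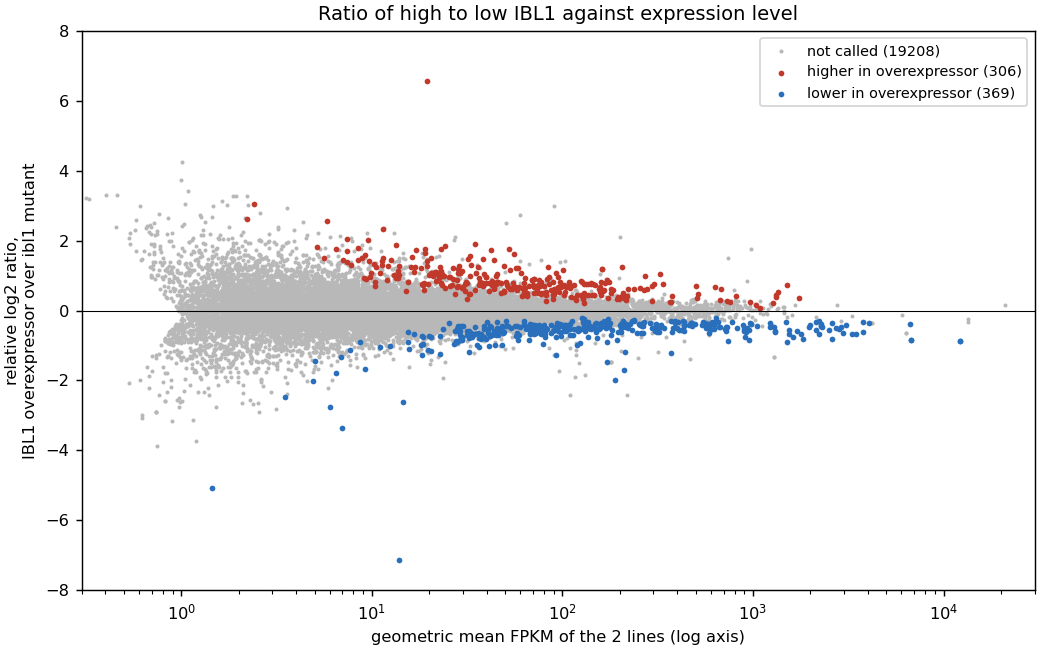
Each point is a tested gene, with the geometric mean FPKM of the IBL1 overexpressor and the ibl1 mutant on the x axis (log scale) and the relative log2 ratio on the y axis; 306 genes called higher are red, 369 called lower are blue and 19208 not called are grey, and 3 genes fall outside the axes. Below 10 FPKM few genes were called, and above 1000 FPKM most called genes lay below 0.

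After IBL1, the largest called rises, taken over genes that reached 1 FPKM in each line, were in genes of several kinds. PP2-A5, a phloem protein 2 of the lectin type, was at 14.9 FPKM in the overexpressor, 3.70 in Col and 2.24 in the mutant (2.55 ± 0.62). XTR6 (AT4G25810), a xyloglucan endotransglucosylase that cuts and rejoins cell wall xyloglucan, was at 27.5, 9.16 and 4.80 FPKM in the same order (2.33 ± 0.48). These genes had Col between the lines but nearer to the mutant. RING1, a RING/U-box protein, was at 20.5 FPKM in the overexpressor, 6.56 in Col and 4.41 in the mutant. BCS1 was at 10.3, 3.18 and 2.59 FPKM, CYP81D8, a cytochrome P450, at 16.9, 6.22 and 4.26 FPKM, and AT5G51440, an HSP20-like chaperone, at 27.5, 14.5 and 6.53 FPKM. The other rises of this size were in AT1G52820, a 2-oxoglutarate-dependent oxygenase (2.05 ± 0.61), in AT5G20790 (1.90 ± 0.31), AT1G65486 (1.78 ± 0.52) and AT1G19020 (1.77 ± 0.51), and in AT2G04460.1 (1.85 ± 0.59), which the reference annotation lists as a pseudogene.

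At the other end, AT3G01345 (chromosome 3, 129138 to 130749, TAIR10), annotated as an uncharacterized protein, had the largest called fall. Its level was 1.25 FPKM in the overexpressor, 0.245 FPKM in Col and 155 FPKM in the mutant (-7.14 ± 1.51). It was thus the mutant that stood apart from Col and not the overexpressor. The IBH1 overexpressor was also high, at 162 FPKM, and the ibh1 mutant low, at 0.726 FPKM. The groups high for AT3G01345 had IBL1 at 1.87 and 1.84 FPKM, and the others had it at 7.27, 7.70 and 201 FPKM. A link between the levels of these genes was not tested, and 1 value per group is too little to show one. LTP4, a lipid transfer protein gene induced by abscisic acid, was at 2.31 FPKM in the overexpressor, 4.14 in Col and 20.8 in the mutant (-3.36 ± 0.95). AT2G37870, another protein of the lipid transfer type, was at 2.49, 10.0 and 14.8 FPKM (-2.75 ± 0.84). MYB106, a MYB factor known for its part in trichome and cuticle development, was at 1.58, 5.31 and 7.78 FPKM (-2.48 ± 0.69). These genes are at low levels with wide errors. The remaining falls of this group were in AT4G04223 (-2.61 ± 0.61), AT1G13650 (-2.03 ± 0.59), AT5G14650, a pectin lyase-like protein (-1.79 ± 0.43), AT1G15405 (-1.70 ± 0.31), AT3G28220, a TRAF-like protein (-1.68 ± 0.38), AT3G19620, a glycosyl hydrolase (-1.44 ± 0.38), the chloroplast gene ATCG00020 and GASA6, which are taken up with their groups.

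In the bHLH network around IBL1, the growth-promoting factors HBI1 and BEE2 and the phytochrome-interacting factor PIF4 were lower with high IBL1. HBI1 (AT2G18300), the bHLH activator that IBH1 is known to bind and block, was at 26.9 FPKM in the overexpressor, 48.9 FPKM in Col and 46.7 FPKM in the mutant (-0.98 ± 0.17). BEE2 (AT4G36540), a brassinosteroid-induced bHLH of the same clade, was at 21.8, 42.6 and 36.0 FPKM (-0.90 ± 0.21). For both genes the mutant lay near Col and the overexpressor stood low. These were the 2 called of 9 tested members of the HBI1, BEE and CIB group, which had a median of -0.19. Among all tested genes 1.86% were lower. PIF4 (AT2G43010), a bHLH factor that drives elongation in warmth and shade, was at 5.53 FPKM in the overexpressor, 33.2 FPKM in Col and 10.6 FPKM in the mutant (-1.12 ± 0.29). Both lines were below Col for PIF4, so its level was not ordered by IBL1 dose. It was the only called gene of 6 tested phytochrome-interacting factors and HFR1, and PIF5, the most abundant of them, was at 38.03 FPKM in the overexpressor and 37.7 FPKM in the mutant. None of the 5 tested PRE genes was called, and PRE3, the most abundant, was at 32.1 FPKM in the overexpressor, 19.1 in Col and 15.4 in the mutant (0.87 ± 0.49). In the family of IBH1, IBL1, AIF, PAR and UPB1, only IBL1 was called among 9 tested genes, and the rest ranged from -0.92 to 0.13.

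Of 10 tested genes of brassinosteroid synthesis, CPD, which encodes a cytochrome P450 of that route, was lower and none was higher. CPD was at 80.3 FPKM in the overexpressor, 139 FPKM in Col and 94.6 FPKM in the mutant (-0.42 ± 0.12), and without centring it was not called (-0.23). Of 10 tested brassinosteroid signalling genes, BES1, a transcription factor of the response, was lower, at 94.7, 114 and 116 FPKM (-0.48 ± 0.07). The medians of these lists, -0.07 and -0.06, were close to the median of all tested genes (0.00), of which 1.86% were lower.

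Growth-related gene families were split, with most of their members not called. GASA6 (AT1G74670), a gibberellin-regulated cysteine-rich peptide that promotes cell elongation, was at 101 FPKM in the overexpressor, 305 FPKM in Col and 351 FPKM in the mutant (-1.99 ± 0.15). GASA4 was at 322, 412 and 437 FPKM (-0.62 ± 0.11), and the other 3 tested members of the 5 in this family were not called. Among 23 tested expansins, which loosen cell walls, EXPA8 (15.7 FPKM in the overexpressor, 41.0 in Col and 32.7 in the mutant), EXPA1 (149, 246 and 214 FPKM) and EXP3 (29.9, 54.7 and 45.0 FPKM) were lower, of which EXP3 was not called without centring (-0.59). EXLA1, an expansin-like gene, was higher, at 45.0, 21.7 and 18.8 FPKM (1.07 ± 0.31). Among 27 tested xyloglucan endotransglucosylase/hydrolase genes the called members were XTR6, TCH4 and XTH24, all higher. XTH24 was at 181 FPKM in the overexpressor, 112 FPKM in Col and 93.7 FPKM in the mutant (0.77 ± 0.14). The lists' medians of -0.05 and 0.09 lay close to that of all tested genes. Shares over all tested genes, to set beside the counts in these families, were 1.54% higher and 1.86% lower.

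Aquaporins, the channels for water, had 4 of 19 tested members lower and none higher, with a median of -0.20. Over all tested genes 1.86% were lower. DELTA-TIP, a channel of the vacuole membrane, was at 502 FPKM in the overexpressor, 925 FPKM in Col and 685 FPKM in the mutant (-0.63 ± 0.09), and PIP1;5, PIP1C and PIP3, channels of the plasma membrane, were lower by 0.41 to 0.51 in size on the relative log2 scale. Without centring, 2 aquaporins were lower and 1 higher. Among 26 tested Aux/IAA genes, repressors of the auxin response, IAA7 (-0.53 ± 0.10), IAA8 (-0.36 ± 0.08) and IAA9 (-0.30 ± 0.06) were lower, 1 of them without centring. AT4G38860 was the only called gene of 55 tested in the SAUR family of small auxin-induced genes, at 14.6, 30.9 and 28.7 FPKM (-1.16 ± 0.35), and it was not called without centring (-0.97). A single call of 55 is close to the 1.86% lower over all tested genes.

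Many nuclear genes of the light-harvesting antenna and the photosystems were lower with high IBL1 than with low IBL1. Of 20 tested genes for the light-harvesting antenna, the chlorophyll-binding proteins that feed light energy to the photosystems, 17 were lower and none higher, with all 20 ratios below 0 and a median of -0.68. Over all tested genes 1.86% were lower, and of the 91 at 1000 FPKM or more 43 were. Summed over the 20 genes, the level was 40212 FPKM in the overexpressor, 52520 FPKM in the mutant and 91299 FPKM in Col. Both lines were thus below Col, the overexpressor more so, and the set was not ordered by IBL1 dose. LHCB2.3 (AT3G27690) differed most, at 260 FPKM in the overexpressor, 745 FPKM in Col and 534 FPKM in the mutant (-1.22 ± 0.10). LHB1B1 was at 1167, 4324 and 1926 FPKM (-0.91 ± 0.11), LHCB2.2 at 583, 1944 and 936 FPKM (-0.87 ± 0.10) and LHCB2.1 at 759, 2185 and 1188 FPKM (-0.83 ± 0.10). Reads of such near-identical copies may be split uncertainly between them. Without centring 13 of the 20 were lower and none was higher.

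Of 25 nuclear genes for subunits of photosystems I and II, a list added after its members had been seen among the abundant called genes, 20 were lower and none higher, with all 25 ratios below 0 and a median of -0.46. The share lower over all tested genes was 1.86%, but it was higher among abundant genes such as these. Of the 91 tested genes at 1000 FPKM or more 43 were lower, and of the 1461 at 100 to 1000 FPKM 167 were. PSBO2, a subunit of the oxygen-evolving complex, was at 741 FPKM in the overexpressor, 1055 FPKM in Col and 1105 FPKM in the mutant (-0.76 ± 0.09). PSAN was at 1333, 2054 and 1973 FPKM (-0.75 ± 0.09), PSBR at 3246, 5079 and 4398 FPKM (-0.62 ± 0.10) and PSAD-2 at 777, 1631 and 1033 FPKM (-0.59 ± 0.10). For these 4 genes the overexpressor was the lowest of the 3 genotypes. Without centring 10 of the 25 were lower. Among 10 genes of chlorophyll synthesis, 6 were lower and none higher, with a median of -0.37. Lower calls made up 1.86% over all tested genes, and 167 of the 1461 at 100 to 1000 FPKM. HEMA1, which encodes the first committed enzyme of tetrapyrrole synthesis, was at 91.8, 137 and 131 FPKM (-0.70 ± 0.11), and CHLH, a subunit of magnesium chelatase, at 224, 329 and 309 FPKM (-0.65 ± 0.09). CAO, which makes chlorophyll b, was at 49.4, 80.5 and 67.9 FPKM (-0.64 ± 0.13), and GUN4, a regulator of magnesium chelatase, at 159, 227 and 193 FPKM (-0.46 ± 0.13). Without centring 3 of the 10 were lower.

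For the small subunit of Rubisco, 3 of 4 genes were lower by small amounts: RBCS3B (-0.39 ± 0.11), RBCS1B (-0.35 ± 0.10) and RBCS2B (-0.34 ± 0.10). None of these was called without centring. Of the 91 tested genes at 1000 FPKM or more, 43 were lower in the centred test. Of 97 tested chloroplast-encoded genes, 6 were lower and none higher, and 85 had a ratio below 0 (median -0.48). Among all 19883 tested genes, 1.86% were lower and 9872 had a ratio below 0. ATCG00020 was at 109 FPKM in the overexpressor, 166 FPKM in Col and 267 FPKM in the mutant (-1.48 ± 0.13), and ATCG00490 was at 149, 227 and 301 FPKM (-1.20 ± 0.11). Col lay between the lines for both genes. ATCG00920 and ATCG01210, which have nearly the same FPKM in every group, were at 5383, 9249 and 8451 FPKM. Chloroplast transcripts mostly lack long poly(A) tails and the libraries were made from poly(A) RNA. Of 56 tested mitochondrion-encoded genes none was called, and the most abundant, ATMG01390, was at 1023 FPKM in the overexpressor and 832 FPKM in the mutant. Markers of root tissues and root hairs, set beside these results as a check on tissue makeup, had 0 of 9 called and a summed level of 228 FPKM in the overexpressor, 164 FPKM in the mutant and 183 FPKM in Col. Their median relative log2 ratio was 0.37, and its part in the photosynthesis results was not tested. Flower and flowering-time markers had 0 of 4 called, with SOC1 the most abundant at 12.6 FPKM in the overexpressor and 13.5 FPKM in the mutant, and none of 3 seed storage markers reached 1 FPKM.

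**Figure D3:**
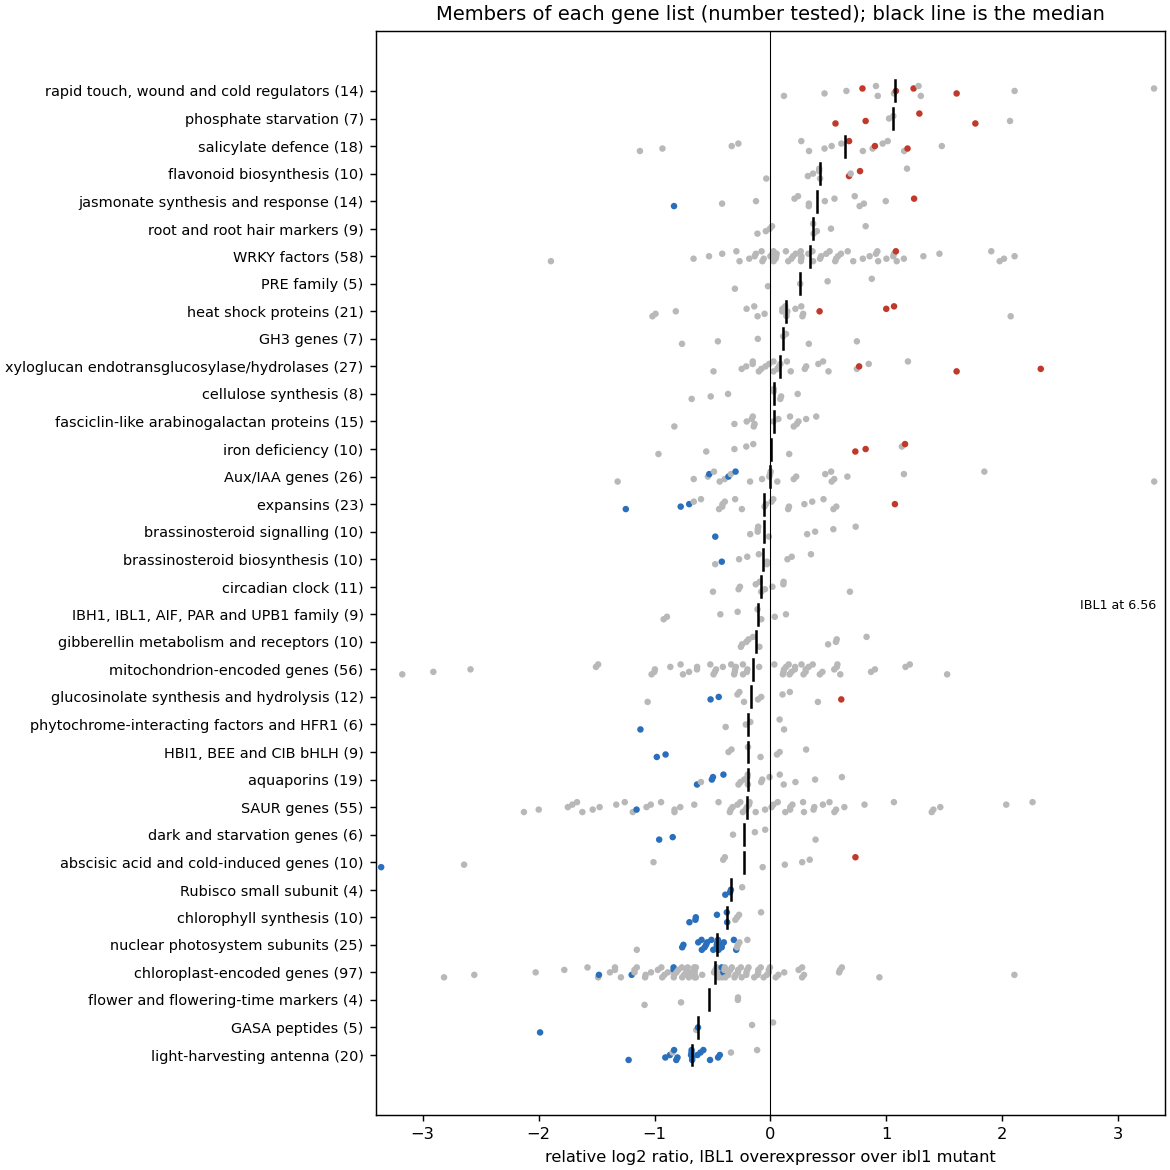
Each point is the relative log2 ratio (x axis) of a tested member of a gene list (rows, with the number tested), red where called higher in the IBL1 overexpressor, blue where called lower and grey otherwise, with a black line at the list's median. The antenna and photosystem lists lie wholly below 0, with medians of -0.68 and -0.46, while all tested phosphate starvation and touch genes lie above 0, with medians of 1.06 and 1.07.

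In the opposite direction, 4 of 7 tested genes of phosphate starvation were higher with high IBL1, beside 1.54% of all tested genes. The other 3, SPX3, IPS1 and PLDP2, did not pass the test, though their ratios were above 0 like the rest (median of the list 1.06). MGD3 (AT2G11810), which makes the galactolipid that replaces phospholipid under phosphate shortage, was at 12.8 FPKM in the overexpressor, 11.8 FPKM in Col and 3.31 FPKM in the mutant (1.77 ± 0.40). Here the mutant stood below Col and the overexpressor close to it. PHT1;4 (AT2G38940), a phosphate transporter, was at 47.9, 23.6 and 17.3 FPKM (1.28 ± 0.21), SPX1, a phosphate sensor protein, at 64.4, 41.6 and 32.1 FPKM (0.82 ± 0.22), and SQD2, which makes sulfolipid, at 53.0, 47.0 and 31.6 FPKM (0.56 ± 0.16). Col was between the lines for each of them. Without centring all 7 were called higher. PHT1;1, the main phosphate transporter of roots, was at 84.2, 72.4 and 57.2 FPKM and was not called (0.37 ± 0.14). Of 10 tested iron deficiency genes, IRT1, the root iron transporter, was at 84.9, 66.6 and 33.4 FPKM (1.16 ± 0.17), and FRO2, the root iron reductase, at 21.8, 14.6 and 10.9 FPKM (0.82 ± 0.24). FER1, an iron storage protein that rises with ample iron, was also higher in the overexpressor than in the mutant, at 158, 216 and 83.9 FPKM (0.73 ± 0.12), with Col above both lines. The other 7 tested genes of this list were not called, and its median was 0.01. Among all tested genes 1.54% were higher.

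Genes that respond within minutes to touch, wounding or cold had 4 of 14 tested members higher and none lower, with all 14 ratios above 0 and a median of 1.07. Over all tested genes 1.54% were higher. CBF1, a member without a test, went the other way, listed at 0 in the overexpressor, 0.421 FPKM in Col and 1.08 FPKM in the mutant. It is named after its values were seen. TCH3, a calmodulin-like calcium sensor, was at 334 FPKM in the overexpressor, 146 FPKM in Col and 125 FPKM in the mutant (1.23 ± 0.09). TCH4 (AT5G57560), a xyloglucan endotransglucosylase named for its response to touch, was at 103, 25.5 and 29.8 FPKM (1.61 ± 0.25). WRKY33, a factor of the pathogen response, was at 31.6, 15.6 and 13.1 FPKM (1.08 ± 0.25), and SZF1, a zinc finger protein of the salt response, at 32.3, 15.4 and 16.4 FPKM (0.79 ± 0.23). For these 4 genes Col and the mutant were close together and the overexpressor stood high. Among 58 tested WRKY factors, WRKY33 was the only call in the centred test, while 5 were higher without centring. A single call of 58 is close to the 1.54% higher over all tested genes. Of the WRKY ratios 45 were above 0 and 13 below, with a median of 0.34.

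**Figure D4:**
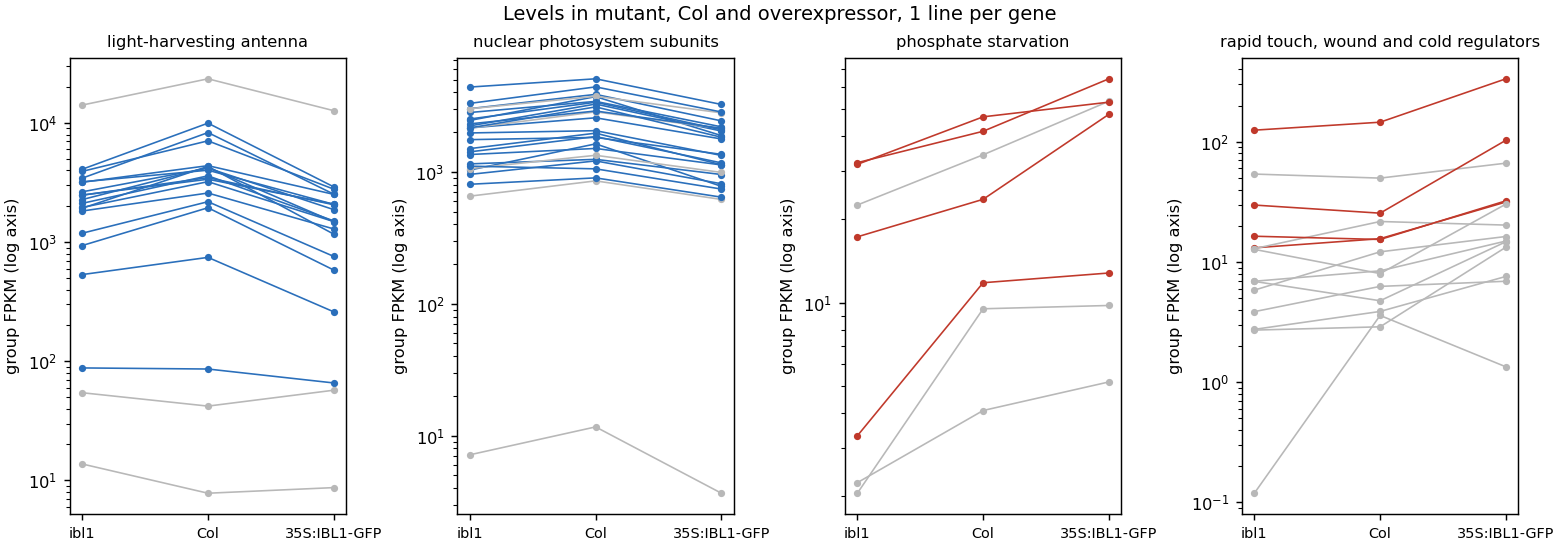
Each line joins the FPKM (log y axis) of a tested gene in the ibl1 mutant, Col and the IBL1 overexpressor, blue where called lower and red where called higher in the overexpressor against the mutant. Antenna and photosystem genes mostly peak in Col, whereas the 4 called phosphate starvation genes rise from mutant to overexpressor.

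Defence genes were higher in part. The counts below stand beside 1.54% higher and 1.86% lower over all tested genes. Of 18 tested genes of salicylate defence, PR2, a beta-glucanase (39.0 FPKM in the overexpressor, 18.6 in Col and 18.4 in the mutant, 0.90 ± 0.28), PR5, a thaumatin-like protein (45.5, 36.0 and 17.6 FPKM, 1.18 ± 0.28), and ACD6, an ankyrin protein (75.03, 20.9 and 41.3 FPKM, 0.68 ± 0.13), were higher and none was lower. PR1, the classic marker of this response, did not follow them: it was at 115 FPKM in the overexpressor, 19.3 FPKM in Col and 193 FPKM in the mutant, and was not called (-0.93 ± 0.30). PR1 is named here after its values were seen. Of 14 tested jasmonate genes, AOC1, an enzyme of jasmonate synthesis, was higher at 37.2, 21.6 and 13.9 FPKM (1.24 ± 0.33), and VSP2, a storage protein induced by jasmonate, was lower at 53.4, 30.7 and 83.6 FPKM (-0.83 ± 0.19), with Col below both lines. Of 12 tested glucosinolate genes, CYP83B1, of the synthesis route, was higher (0.61 ± 0.11), and the myrosinases TGG1 (-0.52 ± 0.09) and TGG2 (-0.45 ± 0.09), which hydrolyse the finished compounds, were lower. TGG2 was not called without centring.

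The counts for flavonoid, heat shock, abscisic acid and darkness genes stand beside 1.54% higher and 1.86% lower over all tested genes. Of 10 tested flavonoid genes 2 were higher and none lower. CHS, chalcone synthase at the entry of the route, was at 468 FPKM in the overexpressor, 266 FPKM in Col and 241 FPKM in the mutant (0.77 ± 0.10), and FLS1, flavonol synthase, at 76.9, 42.2 and 42.3 FPKM (0.68 ± 0.19). Of 21 tested heat shock proteins 3 were higher: HSP90.1 (1.07 ± 0.28), HSP70 (1.00 ± 0.19) and HSP81-2 (0.42 ± 0.10). ERD10, a dehydrin of cold and drought, was higher at 139, 91.1 and 73.7 FPKM (0.73 ± 0.14) and, with the lower LTP4, made up the calls among 10 tested genes of abscisic acid and cold. Of 6 tested genes of darkness and starvation, DRM2 (60.5 FPKM in the overexpressor, 262 in Col and 104 in the mutant, -0.96 ± 0.17) and SEN1 (46.4, 197 and 73.3 FPKM, -0.84 ± 0.16) were lower. Both lines were far below Col for these genes.

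Several groups gave no call: the 10 tested genes of gibberellin metabolism and reception, with RGA at 39.6 FPKM in the overexpressor and 41.6 FPKM in the mutant, the 8 of cellulose synthesis, with KOR1 at 173 and 149 FPKM, the 11 of the circadian clock, with LHY at 70.2 and 65.3 FPKM, the 7 GH3 genes, with DFL1 at 22.4 and 21.3 FPKM, and the 15 fasciclin-like genes, with FLA9 at 199 and 149 FPKM. A missed threshold does not show that these genes were equal. Without centring, 1 cellulose gene and 2 fasciclin-like genes were called higher. Among 6 tested reference genes, UBQ10 was called at 1188 and 987 FPKM, although its ratio was only 0.08 ± 0.02, and GAPC1 was called at 993 and 660 FPKM (0.40 ± 0.09). The other 4 ranged from 0.04 to 0.09. UBC21, a reference gene without a test, went the other way. It was at 33.5 FPKM in the overexpressor, 34.6 FPKM in Col and 42.8 FPKM in the mutant, and is named after its values were seen.

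The upstream sequences of 4 called genes are shown because bHLH factors bind the E-box, spelled CANNTG, and its subtype the G-box, spelled CACGTG. Each window is the 250 bases before the gene start in RefSeq's TAIR10.1 annotation, written 5′ to 3′ on the strand of the gene, with E-boxes in capitals. The 4 genes were chosen after their values were seen. GASA6, HBI1 and LHCB2.3 were lower with high IBL1 and TCH4 was higher.
GASA6, chr1:28052780-28053029, plus strand: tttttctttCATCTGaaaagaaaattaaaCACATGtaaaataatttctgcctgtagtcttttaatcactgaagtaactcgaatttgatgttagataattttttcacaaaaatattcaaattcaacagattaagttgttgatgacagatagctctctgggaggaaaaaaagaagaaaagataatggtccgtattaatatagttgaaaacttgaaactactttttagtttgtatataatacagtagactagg
HBI1, chr2:7954786-7955035, minus strand: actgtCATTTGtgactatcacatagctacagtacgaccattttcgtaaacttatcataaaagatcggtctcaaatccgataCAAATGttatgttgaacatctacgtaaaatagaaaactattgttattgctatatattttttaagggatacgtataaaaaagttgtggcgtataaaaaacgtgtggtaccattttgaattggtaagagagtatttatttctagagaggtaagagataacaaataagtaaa
LHCB2.3, chr3:10255656-10255905, plus strand: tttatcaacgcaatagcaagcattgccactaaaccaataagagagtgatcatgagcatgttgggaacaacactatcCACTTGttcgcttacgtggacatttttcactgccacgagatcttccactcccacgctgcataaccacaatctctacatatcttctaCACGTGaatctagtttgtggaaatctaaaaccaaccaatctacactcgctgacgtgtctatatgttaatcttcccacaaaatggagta
TCH4, chr5:23308681-23308930, minus strand: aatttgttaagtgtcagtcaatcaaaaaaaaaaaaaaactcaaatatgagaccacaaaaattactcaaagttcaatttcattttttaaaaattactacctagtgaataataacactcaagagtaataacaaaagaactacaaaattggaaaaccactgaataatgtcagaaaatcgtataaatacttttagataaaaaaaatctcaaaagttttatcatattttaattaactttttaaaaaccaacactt
The windows of GASA6, HBI1 and LHCB2.3 held 2 E-boxes each, and that of TCH4 held 0. The deposited locus of TCH4 ends at 23308282 while its window begins at 23308681, and the bases between were not searched. Windows of the other 3 genes also lie apart from their deposited loci. The E-box of LHCB2.3 that starts 88 bases before the gene is also a G-box. Over all 19413 tested genes with a window, 56.2% held an E-box and 7.21% a G-box, counted on both strands, where these motifs read the same. Among the 304 windows of genes called higher, 49.3% held an E-box and 4.28% a G-box, and among the 362 of genes called lower, 62.2% and 9.67%. Of the 20 antenna genes 19 held an E-box and 5 a G-box. The P1BS motif, spelled GNATATNC, which the phosphate starvation factor PHR1 binds, was in 2 of the 7 windows of the phosphate list and in 5.44% of all windows. These are counts of letters in short windows, given as a description; no binding was measured.

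Of the 1085 members without a test, 852 had a status other than OK in a deposited table, 119 had a line listed at 0 and 114 had Col listed at 0. In all, 291 members were listed at 0 in the mutant and 152 in the overexpressor. The most abundant of these, chosen after their values were seen, include AT2G01010, the 18S ribosomal RNA, listed at 0 in the overexpressor and at 13589 FPKM in the mutant, and AT1G60840, a glycine transfer RNA gene, at 823 FPKM in the overexpressor and listed at 0 in the mutant. Since ribosomal RNA is present in every cell, a listed 0 is not read as absence, and no fold is given for these genes. Among tested genes that reached 1 FPKM in only 1 of the lines (360 in the overexpressor, 232 in the mutant), 3 passed the threshold: GPT2 (5.86 FPKM in the overexpressor and 0.843 in the mutant), RNS1 (7.39 and 0.791 FPKM) and PRP40C (0.266 and 7.88 FPKM), named after their values were seen. These genes became members through the line in which they were high, which fixed the direction, so they are given as a description and support nothing. PRP40C was at 7.74 FPKM in Col and at 9.05 and 7.93 FPKM in the IBH1 lines. At the edge of the filter, the higher of the 2 lines was at 1.0011 FPKM for AT5G61890, 1.0015 for RSH4 and 1.0019 for AT5G67090, just inside, and at 0.99987 FPKM for CRK37, 0.99943 for WRKY28 and 0.99889 for AT2G07696, just outside.

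In the IBH1 lines the level of IBL1 itself was 1.84 FPKM in the overexpressor and 7.27 FPKM in the ibh1 mutant, beside 7.70 FPKM in Col, so effects of high IBH1 and of low IBL1 cannot be told apart in the IBH1 overexpressor. The same ratio was formed for the IBH1 overexpressor over the ibh1 mutant, and the difference of the 2 ratios was tested with the same kind of standard error, a test added after the data had been seen. Of 19391 genes tested in both pairs, 569 differed (2.93%), 281 with a larger ratio in the IBL1 pair (1.45%) and 288 with a smaller (1.49%). In the IBH1 pair itself 585 of 19739 tested genes were called (2.96%). GASA6 was lower with high dose of either homologue, but more so for IBH1, at 18.4 FPKM in the IBH1 overexpressor and 418 FPKM in the ibh1 mutant (-4.50 ± 0.27 against -1.99 ± 0.15, a difference of 2.51 ± 0.31 that passed the test). EXPA8 did likewise, at 1.61 and 42.3 FPKM in the IBH1 pair (-4.71 ± 0.59 against -1.25 ± 0.26). HBI1 was lower in the IBL1 pair but stood at 48.0 FPKM in the IBH1 overexpressor and 47.3 FPKM in the ibh1 mutant, and its difference of -1.01 ± 0.24 passed the test. MGD3 had ratios of opposite sign, at 2.47 and 10.4 FPKM in the IBH1 pair (-2.07 ± 0.44 against 1.77 ± 0.40). Its level was 3.31 FPKM in the ibl1 mutant, 12.8 FPKM in the IBL1 overexpressor and 11.8 FPKM in Col. A link of MGD3 to the IBL1 level was not tested. DRM2 also had ratios of opposite sign, at 237 and 86.9 FPKM (1.45 ± 0.16 against -0.96 ± 0.17). For BEE2, PIF4 and LHCB2.3 the difference between the pairs did not pass the test, at -0.34 ± 0.29, -0.36 ± 0.39 and -0.16 ± 0.16.

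**Figure D5:**
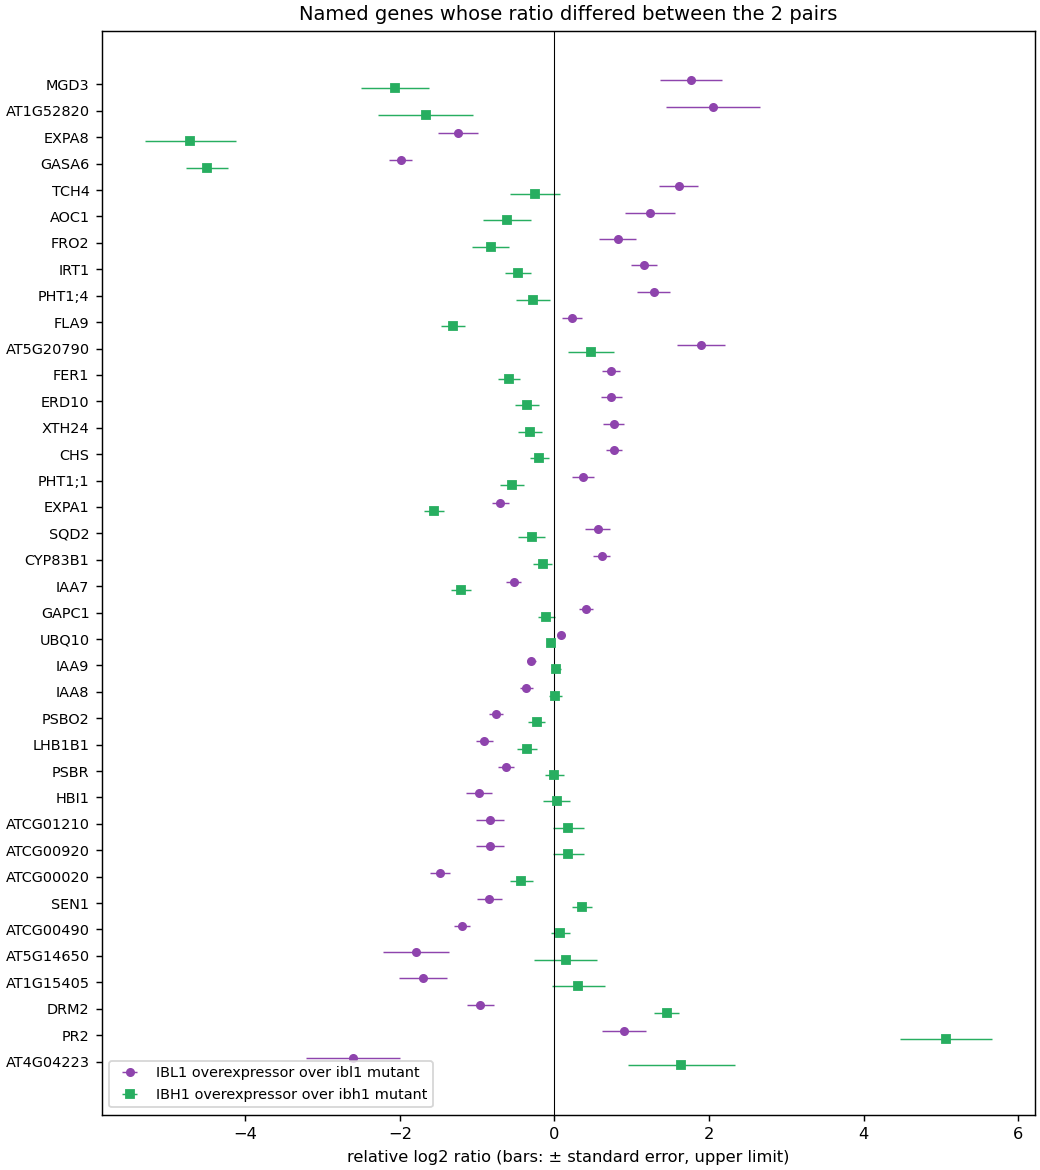
For the 38 named genes whose ratio differed between the pairs, circles give the relative log2 ratio of the IBL1 overexpressor over the ibl1 mutant. Squares give that of the IBH1 overexpressor over the ibh1 mutant. Bars are 1 standard error, an upper limit only as to the error of Col. GASA6 and EXPA8 are below 0 in both pairs, while MGD3 is at 1.77 in the IBL1 pair and -2.07 in the IBH1 pair.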

How the data were processed

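RNA was measured in whole seedlings of 5 genotypes with 2 libraries each. Per the labels' protocols, poly(A) RNA was made into Illumina TruSeq libraries, and per the submitters' processing notes CASAVA 1.8.2, TopHat 1.4.1 and Cuffdiff were used with TAIR10. Which version of Cuffdiff was run, how it scaled the groups and whether it counted by strand is not given in the sources used here, so antisense and overlapping genes cannot be told apart. Per the file headers, each of the 4 tables of 34047 genes gives for a line and for Col 1 FPKM value per group together with a statistic, its p-value and q-value, and a log2 fold change. The deposited log2 column was treated as a score, because it holds placeholders where a group is at 0. No value per library was used, so there is no SD, and the depth is unknown.

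The overexpressor and mutant FPKM were joined by gene ID, and Python 3.11.15 with numpy 2.4.6, pandas 2.3.3 and scipy 1.17.1 computed the log2 ratio. From it the median over genes at 1 FPKM or more in both lines was subtracted. The standard error of each line against Col is its deposited log2 fold change divided by the deposited statistic, which has the sign of line over Col while the log2 column is Col over line. A two-sided normal p computed from that statistic matched the deposited p-value to within 2.81e-06. The errors of both lines were added in squares, and the normal test was adjusted over all tested genes by Benjamini-Hochberg. The procedure was run on simulated ratios with normal errors drawn from the same standard errors. Such a run cannot show whether those errors hold with 2 libraries per genotype. Symbols and upstream windows came from RefSeq TAIR10.1, in which 20619 of the 20968 members were found, and 27853 of 27854 genes in both overlap in position with the files' loci. Overlapping genes can still differ in their gene start. A locus in the files can join neighbouring genes.

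The members and the 38 gene lists were chosen with earlier results of these data known, and the list of nuclear photosystem subunits and the test between the IBL1 and IBH1 pairs were added after the data had been seen. Named are IBL1 and IBH1, the 12 called genes with the largest rise and the 12 with the largest fall of those that reach 1 FPKM in each line, up to 4 called members of each list with the largest ratio in size or, where none is called, the member of highest FPKM, and the 3 genes on each side of the filter. Genes outside this rule are said to be chosen after their values were seen, PIF5 and AT4G30400 among them. Alternatives were no centring, centring on genes at 10 FPKM or more, a standard error without the part of Col, other FPKM filters, an adjusted p below 0.01 and pseudocounts.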

Additional observations from a re-analysis of the deposited data

Results flagged for a closer look

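For 38 of the named genes the relative log2 ratio of overexpressor over mutant differed between the IBL1 pair and the IBH1 pair, by a two-sided normal test of the difference itself with Benjamini-Hochberg adjustment over 19391 genes, added after the data had been seen. Over all of these genes 2.93% differed. Most named genes were chosen for a call in the IBL1 pair, and the ratio of that pair is part of the difference. The number of named genes that differ and many of the directions below are thus partly set by that choice. They are given as a description. Values below are the ratio in the IBL1 pair minus that in the IBH1 pair, and IBL1 and IBH1 themselves are left out.

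The nutrient genes among them had a larger ratio in the IBL1 pair. The difference was 3.83 for MGD3, 1.56 for PHT1;4, 0.86 for SQD2 and 0.92 for PHT1;1, all of the phosphate response or phosphate transport. Among iron genes it was 1.63 for IRT1, 1.65 for FRO2 and 1.33 for FER1.

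Cell wall and growth genes were split. The difference was 1.86 for TCH4, 1.08 for XTH24, 3.46 for EXPA8, 0.86 for EXPA1, 2.51 for GASA6 and 1.54 for FLA9, an arabinogalactan protein. For EXPA8, EXPA1 and GASA6 both pairs had ratios below 0, and the fall was larger in the IBH1 pair. The difference was -1.01 for HBI1. Among Aux/IAA genes it was 0.68 for IAA7, -0.38 for IAA8 and -0.32 for IAA9.

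Genes of defence, secondary metabolism and stress differed by 1.85 (AOC1), 0.97 (CHS), 0.76 (CYP83B1) and 1.09 (ERD10). PR2 differed by -4.17, since its level was 37.3 FPKM in the IBH1 overexpressor and 1.12 FPKM in the ibh1 mutant. The dark-induced genes DRM2 and SEN1 differed by -2.41 and -1.20.

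The photosynthesis genes among them had a smaller ratio in the IBL1 pair. The difference was -0.56 for LHB1B1, -0.62 for PSBR and -0.53 for PSBO2. Of chloroplast-encoded genes it was -1.05 for ATCG00020, -1.27 for ATCG00490, -1.01 for ATCG00920 and -1.01 for ATCG01210.

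The reference genes GAPC1 and UBQ10 differed by 0.51 and 0.13. AT1G52820, the 2-oxoglutarate-dependent oxygenase, differed by 3.72 and AT5G14650, the pectin lyase-like protein, by -1.94. Of genes with little or no annotation, AT5G20790 differed by 1.43, AT1G15405 by -2.01 and AT4G04223 by -4.25.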

How the results depend on the processing

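The count of called genes stayed within 1.5 times of 675 when centring used genes at 10 FPKM or more (662) and under the other FPKM filters (672 to 730). It moved to 1038 without centring (893 higher, 145 lower), to 1780 with the part of Col taken out of the standard error (794 higher, 986 lower) and to 423 at an adjusted p below 0.01 (193 higher, 230 lower). Of the 675 genes, 451 (66.8%) were also called in the same direction without centring. Genes at least 2-fold apart numbered 222 without centring, 260 with the part of Col taken out, and, with no test asked, 1826 with a pseudocount of 0.1 FPKM and 1040 with a pseudocount of 1 FPKM. Of 90 called named genes, 78 kept their call without centring and 68 at 0.01, and all 90 under the other alternatives that give a test. The ratios of LHY and DFL1, neither called, turned to 0.11 and 0.076 without centring. The cause of the shift was not tested. No paired analysis was possible because the tables hold 1 value per group, and for the same reason no library could be left out. The unknown depth limits what can be said of genes at low FPKM, few of which were called.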
